A study of Homo sapiens with 6 samples.

Results

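LIN28B and the let-7 precursor genes were examined in SK-N-BE(2), an established human neuroblastoma cell line that carries amplified MYCN, after infection with a lentivirus carrying a hairpin against BRG1 or a non-silencing hairpin. BRG1, the product of SMARCA4, is an ATPase of the SWI/SNF chromatin remodelling complexes. The genes were chosen by symbol, and the list held LIN28B, MIRLET7A1, MIRLET7A2, MIRLET7A3, MIRLET7B, MIRLET7C, MIRLET7D, MIRLET7E, MIRLET7G and MIRLET7I. Of these 10 genes, 9 had a named probe set among the 14883 named genes of the array, each with 1 probe set, and MIRLET7B was not analysed here beyond its sequence. The list was drawn up with the change between the groups already known, so the values of its members in that contrast are a description and carry no test.

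The NSC group held 3 samples of SK-N-BE(2) infected with the pLKO non-silencing control virus, and the shBRG1 group held 3 samples of the same line infected with the pLKO virus against BRG1. Cells were harvested for total RNA 48 h after infection, and each sample's 200 ng went onto an Affymetrix array of its own. The labels name a single BRG1 hairpin and a single cell line, and they do not say whether the triplicate infections were separate cultures, so the p-values rest on a spread that may be technical. SMARCA4 has no named probe set here, so the knockdown of the target was not analysed here. In RNA of a whole culture, fewer cells of a type and less RNA per cell cannot be told apart.

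Arrays correlated at 0.991 to 0.993 within a group and at 0.986 to 0.988 between groups over all probe sets. Across all named genes, limma with Benjamini-Hochberg adjustment called 2525 of 14883 (17.0%) at an adjusted p below 0.05. Of all genes, 1455 (9.78%) rose and 1070 (7.19%) fell in shBRG1. Of 12 sympathoadrenal markers, which label the lineage of neuroblastoma, 11 were measured, with a mean level of 9.69 to 9.72 on the NSC arrays and 9.51 to 9.54 on the shBRG1 arrays. Of these 11, 6 fell, 0 rose and 5 did not pass the test. Of 9 Schwann and glial markers, 5 were measured, with a mean level of 4.18 to 4.22 on NSC arrays and 4.002 to 4.032 on shBRG1 arrays. FOXD3 fell (-0.24, adjusted p = 0.041), and the other 4 did not pass the test. That fall was at a dim level, from 2.92 in NSC to 2.67 in shBRG1, below the array medians of 3.77 to 3.84. The part of these shifts in the results on LIN28B and let-7 was not tested.

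LIN28B is an RNA-binding protein of embryonic and progenitor cells that binds let-7 primary transcripts and precursors and blocks their maturation. Mature let-7 in turn represses LIN28B and other growth-promoting messenger RNAs, so the proteins and the microRNAs form a loop of mutual inhibition. In neuroblastoma, LIN28B is known as an oncogene linked to low let-7 and high MYCN. The array probes read precursor or host RNA of a microRNA gene. The values below are thus not levels of mature let-7, whose formation LIN28B is known to block.

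The mature sequences show what the let-7 members share. All carry the seed GAGGUAG, bases 2 to 8 from the 5′ end, which is in capitals in the lines that follow. The 9 let-7 genes of the list encode 7 distinct mature sequences of 22 bases, taken from RefSeq (GRCh38.p14), since MIRLET7A1, MIRLET7A2 and MIRLET7A3 yield the same one.
let-7a-5p: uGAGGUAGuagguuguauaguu
let-7b-5p: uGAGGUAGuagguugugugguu
let-7c-5p: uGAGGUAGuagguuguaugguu
let-7d-5p: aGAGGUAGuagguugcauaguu
let-7e-5p: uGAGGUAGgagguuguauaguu
let-7g-5p: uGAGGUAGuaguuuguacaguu
let-7i-5p: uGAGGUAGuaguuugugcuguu
Against let-7a, let-7c and let-7e differ at 1 position, let-7b, let-7d and let-7g at 2 and let-7i at 4. The RefSeq table held 14 genes with this seed, of which 13 were measured, the 8 let-7 members and 5 others.

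The hairpins differ in a feature that bears on LIN28. The zinc knuckles of LIN28 proteins are known to bind a GGAG in the terminal loop of let-7 precursors. These 4 letters were looked for on the transcript strand between the 2 mature arms. They occurred in 7 of the 9 member hairpins, and in 60 of 739 hairpins of the table with 2 mature arms (8.12%). Precursors of let-7a-3 and let-7b held none, and let-7e held 2 copies. A match is a description of letters, not of a bound site. The hairpins of MIRLET7C and MIRLET7D, the 2 let-7 members whose groups did not overlap, are shown with those of MIRLET7E and MIRLET7A3, with GGAG in capitals.
let-7c, chr21:16539828-16539911, plus strand: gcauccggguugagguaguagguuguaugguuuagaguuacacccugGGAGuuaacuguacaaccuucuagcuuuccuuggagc
let-7d, chr9:94178834-94178920, plus strand: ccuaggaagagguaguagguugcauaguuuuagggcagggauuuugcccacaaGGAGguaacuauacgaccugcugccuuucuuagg
let-7e, chr19:51692786-51692864, plus strand: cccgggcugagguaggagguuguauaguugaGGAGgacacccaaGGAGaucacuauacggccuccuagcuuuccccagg
let-7a-3, chr22:46112749-46112822, plus strand: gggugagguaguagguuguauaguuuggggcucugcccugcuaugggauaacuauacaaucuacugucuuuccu
Coordinates are those of RefSeq on GRCh38.p14, and the build of the array design is not stated.

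LIN28B was higher in shBRG1 on every array. Its log2 values were 9.30, 9.35 and 9.28 on the NSC arrays and 9.76, 9.68 and 9.70 on the shBRG1 arrays. The groups did not overlap, and the lowest shBRG1 array lay 0.34 above the highest NSC array. The means were 9.31 ± 0.04 and 9.71 ± 0.04 (SD, n = 3 each), a difference of 0.41 (moderated SE 0.06), or 1.33-fold. Over 14 alternative settings the difference stayed between 0.35, under cyclic loess, and 0.43. Several of these settings, such as the trend and robust options and the filter on dim genes, cannot move the difference of a gene with 1 probe set.

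MIRLET7D, the last of the 3 let-7 genes of the chromosome 9 cluster, was lower in shBRG1. Its values were 5.804, 6.004 and 5.924 in NSC and 5.645, 5.440 and 5.443 in shBRG1. The groups did not overlap, with a gap of 0.16 between them. The means were 5.91 ± 0.10 and 5.51 ± 0.12 (SD, n = 3 each), a difference of -0.40 (SE 0.09), or 1.32-fold, which ranged from -0.47 to -0.35 over the alternatives.

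MIRLET7C, one of the microRNAs of the chromosome 21 cluster, was higher in shBRG1 at a low signal. Its values were 2.82, 2.82 and 2.84 in NSC and 2.95, 3.26 and 3.35 in shBRG1. All 6 lay below the array medians of 3.77 to 3.84 taken over all probe sets, and no shBRG1 value overlapped the NSC range, with a gap of 0.11. The means were 2.83 ± 0.01 and 3.185 ± 0.21 (SD, n = 3 each), a difference of 0.36 (SE 0.11), or 1.28-fold, and 0.28 without shBRG1 array 3 against 0.48 without shBRG1 array 1.

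The other 6 let-7 members had overlapping groups. MIRLET7A1, a source of let-7a at the chromosome 9 cluster, had values of 3.73, 3.06 and 3.67 in NSC and 4.08, 3.98 and 3.23 in shBRG1. 1 array of each group lay well below its fellows, and the difference of 0.27 (SE 0.26) became 0.06 without NSC array 2, 0.12 without shBRG1 array 1, 0.16 without shBRG1 array 2 and 0.54 without shBRG1 array 3. MIRLET7E, the let-7 of the chromosome 19 cluster, gave 5.71, 5.82 and 5.76 in NSC and 5.81, 5.55 and 5.34 in shBRG1. Only shBRG1 array 1 lay within the NSC range there, and the difference was -0.20 (SE 0.12), -0.32 without shBRG1 array 1 and -0.08 without shBRG1 array 3.

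MIRLET7A2 and MIRLET7A3, the remaining sources of let-7a, showed no separation of the groups. MIRLET7A2 gave 2.01, 2.02 and 2.13 in NSC and 1.90, 2.17 and 1.82 in shBRG1, a difference of -0.09 (SE 0.10) that was -0.19 without shBRG1 array 2, -0.02 without shBRG1 array 3, -0.06 without shBRG1 array 1 and -0.05 without NSC array 3 or under loess. All of its values lay below the lower quartiles of the arrays (2.66 to 2.70). MIRLET7A3 gave 5.74, 5.71 and 5.88 in NSC and 5.54, 5.76 and 5.93 in shBRG1, a difference of -0.04 (SE 0.11) that turned positive without NSC array 3 (0.01) and without shBRG1 array 1 (0.07). MIRLET7A3 stood above the array medians on all 6 arrays.

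MIRLET7G, within a coding gene on chromosome 3, and MIRLET7I, on chromosome 12, had the differences nearest 0. MIRLET7G gave 4.02, 3.72 and 3.72 in NSC and 3.84, 3.69 and 3.89 in shBRG1, a difference of -0.01 (SE 0.10). It turned positive under median centring (0.01), under loess (0.02), without NSC array 1 (0.09) and without shBRG1 array 2 (0.05). MIRLET7I gave 5.68, 5.79 and 5.51 in NSC and 5.502, 5.968 and 5.601 in shBRG1, a difference of 0.03 (SE 0.13) that was negative under loess (-0.01), without NSC array 3 (-0.04) and without shBRG1 array 2 (-0.11).

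**Figure D1:**
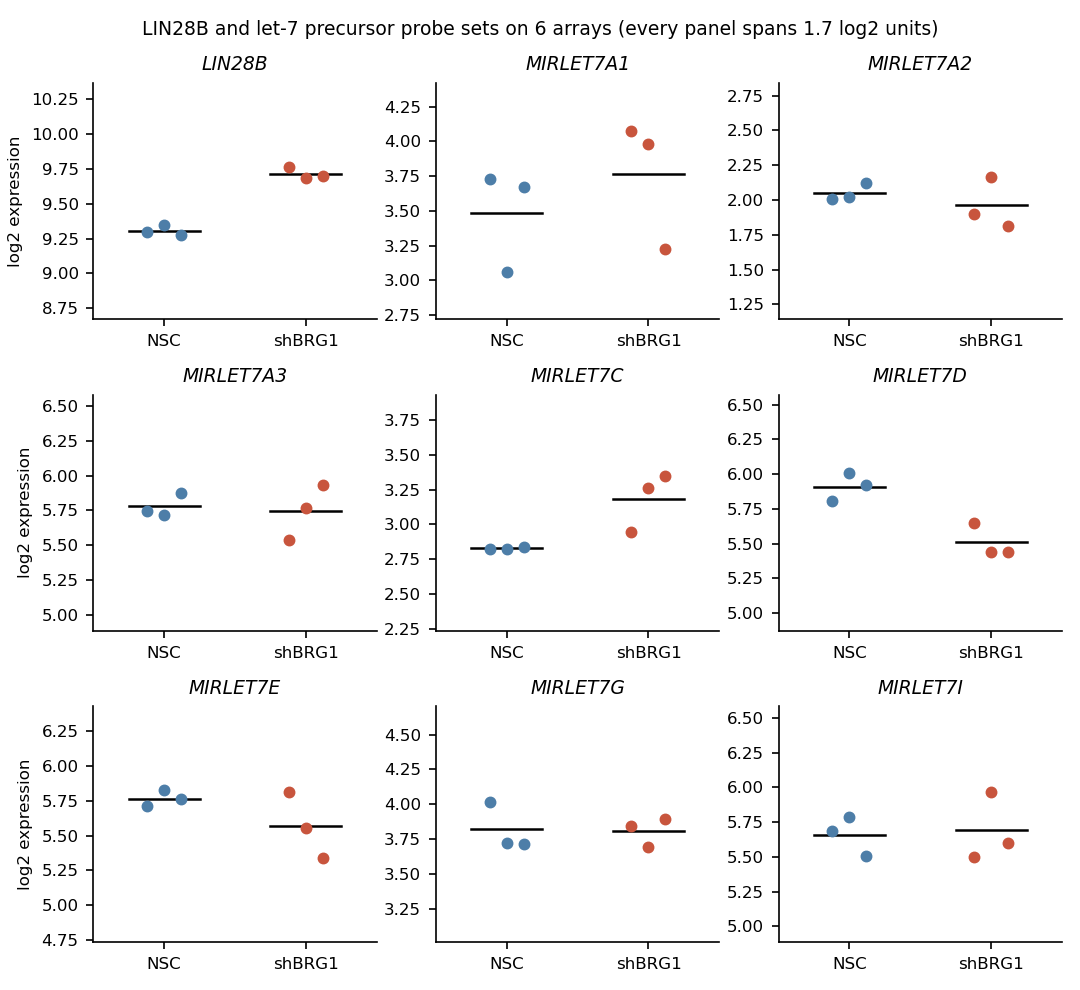
Log2 expression (y axis) of LIN28B and the 8 measured let-7 genes on the 3 NSC arrays (blue) and the 3 shBRG1 arrays (red), 1 point per array, with the group mean as a black line and the same span of log2 units in every panel. LIN28B, MIRLET7C and MIRLET7D show groups that do not overlap, while the other 6 panels show overlap.

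The let-7 members as a set went in both directions. Of the 8 measured, 3 had a mean change above 0 and 5 below, with a median of -0.02, beside 0.01 over all genes and -0.04 over the 1072 microRNA genes. Groups did not overlap for 2 of the 8, for 172 of 1072 microRNA genes (16.0%) and for 5288 of 14883 named genes (35.5%), from which nothing is read since this contrast chose the members. The standard errors of the let-7 members ran from 0.09 to 0.26, against a median of 0.12 over microRNA genes and 0.09 over all genes. Of the 1072 microRNA genes, 74 (6.90%) passed the test. With 3 arrays against 3, an exact two-sided permutation test of a single gene cannot go below p = 0.1.

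Several let-7 genes lie in clusters that are transcribed together, so their partners and hosts were examined too. Hosts are genes whose span holds a let-7 gene, without regard to strand. Whether their RNA is the primary transcript of the microRNAs was not tested. On a list of 25 hosts, cluster partners and other genes with the let-7 seed, 17 were measured, 1 rose, 0 fell and 16 did not pass the test. That share of 5.88% lies beside 17.0% of all genes and 6.90% of microRNA genes, which make up 12 of the 17, and the median change was -0.02. Among the 12 microRNAs of the list, limma called 0, 2 had an unadjusted p below 0.05, and the trend and robust options also called 0.

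MIR99AHG, the long RNA whose span holds let-7c, was the member of that list that rose. Its values were 4.95, 5.12 and 4.71 in NSC and 5.45, 5.77 and 5.39 in shBRG1. The groups did not overlap, and the difference was 0.61 (SE 0.14, adjusted p = 0.021). The call was lost without NSC array 1 (adjusted p = 0.056), NSC array 3 (0.057) or shBRG1 array 2 (0.058), and the adjusted p ranged from 0.0062 to 0.069 over the alternatives. Other microRNAs in the span did not pass the test: MIR99A, which lies 658 bases before MIRLET7C, differed by 0.01 (adjusted p = 0.99), and MIR125B2, 50325 bases after it, by 0.04 (adjusted p = 0.86). At this locus the host RNA and MIRLET7C were both higher in mean in shBRG1. These 2 neighbours had means within 0.04 of the controls, with a SE of 0.19 for MIR99A and 0.11 for MIR125B2, which was dim. Whether their changes differ from that of MIRLET7C was not tested.

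The chromosome 9 cluster gave values in opposite directions. MIRLET7F1, another let-7 gene, lies 310 bases after MIRLET7A1 and 2400 bases before MIRLET7D. Its values were 2.70, 2.70 and 2.84 in NSC and 2.90, 2.97 and 3.54 in shBRG1, dim throughout and without overlap, and the difference of 0.39 did not pass the test (SE 0.16, adjusted p = 0.16). It was 0.18 (adjusted p = 0.24) without shBRG1 array 3. LINC02603, a long RNA whose span holds MIRLET7D, was dim, at a mean of 3.45 in NSC and 3.70 in shBRG1. It differed by 0.24 (SE 0.08, adjusted p = 0.089) and did not pass either. Thus MIRLET7D was lower while MIRLET7A1, MIRLET7F1 and LINC02603 had positive mean differences, and MIRLET7A1HG, the RNA that spans all 3 microRNAs, was not analysed here. The difference in change between these genes was not tested.

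None of the remaining partners passed the test. At the chromosome 19 cluster, MIR99B lies 104 bases before MIRLET7E and MIR125A 389 bases after it, and they differed by -0.16 (adjusted p = 0.64) and by less than 0.01 in size (adjusted p = 0.99), while SPACA6, the coding gene whose span holds them, differed by 0.20 (adjusted p = 0.28), and by 0.08 without shBRG1 array 2. At the chromosome 11 locus of MIRLET7A2, the long RNA MIR100HG differed by -0.07 (adjusted p = 0.57), MIR100 by -0.05 (adjusted p = 0.74) and MIR125B1 by -0.25 (adjusted p = 0.30). MIR125B1 became -0.14 without NSC array 2 and -0.13 without shBRG1 array 3, and MIR100HG -0.02 without shBRG1 array 1 and -0.12 without shBRG1 array 3. WDR82, the coding gene whose span holds MIRLET7G and whose protein belongs to histone methyltransferase complexes, differed by -0.20 (adjusted p = 0.20), and by -0.12 without shBRG1 array 1.

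Members of the seed family outside the list of members were no clearer. MIR98 differed by -0.21 (adjusted p = 0.23) and its neighbour MIRLET7F2 by -0.14 (adjusted p = 0.50). MIR4458 differed by -0.02 (adjusted p = 0.92) and MIR4500 by 0.06 (adjusted p = 0.71), and MIR202, which does not carry this seed in the table, by -0.20 (adjusted p = 0.16). Of the 5 measured genes with the let-7 seed that are not members, 1, MIRLET7F1, had groups that did not overlap, and 0 passed the test, beside 16.0% and 6.90% of the microRNA genes. MIR98 became -0.13 without NSC array 3. MIRLET7F2 became -0.07 without NSC array 1, -0.22 without shBRG1 array 1 and -0.02 without shBRG1 array 2.

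**Figure D2:**
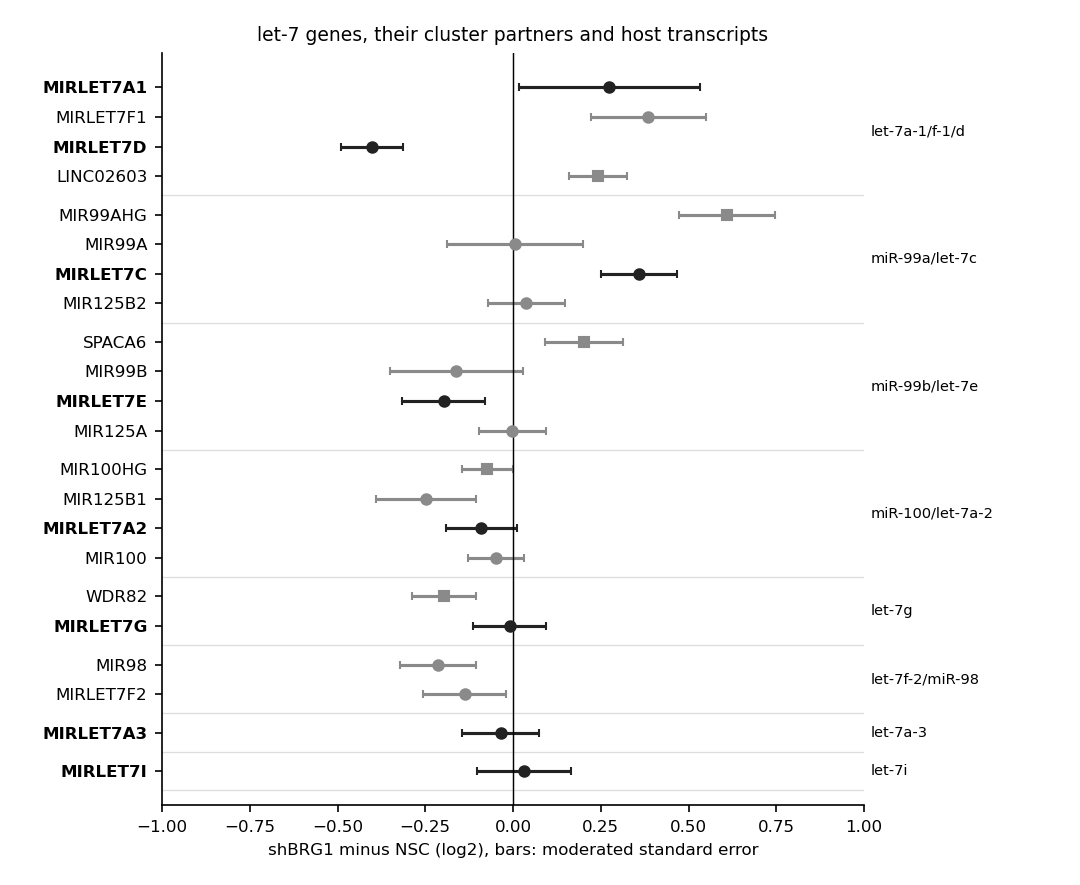
shBRG1 minus NSC on the log2 scale (x axis), grouped by locus, with bars of 1 moderated standard error. Black circles mark the measured let-7 genes of the list of members. Grey circles mark microRNAs outside that list, MIRLET7F1 and MIRLET7F2 among them, and grey squares mark genes whose span holds a let-7 gene. At the let-7a-1/f-1/d locus MIRLET7D lies at -0.40 and the other 3 rows lie above 0, and at the miR-99a/let-7c locus MIR99AHG (0.61) and MIRLET7C (0.36) lie above 0 while MIR99A and MIR125B2 lie near it.

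LIN28B lies on chromosome 6, and its antisense partner rose. LIN28B-AS1 is a long RNA whose start lies 438 bases from the nearer of the 2 LIN28B starts in the promoter table, on the opposite strand. Its values were 6.07, 5.78 and 6.36 in NSC and 6.55, 6.66 and 6.58 in shBRG1. The groups did not overlap, and the difference was 0.53 (SE 0.14, adjusted p = 0.038). The NSC arrays spread widely. The call was lost without NSC array 1 (adjusted p = 0.091) or 2 (0.067) or shBRG1 array 1 (0.084), 2 (0.11) or 3 (0.094). On all 6 arrays, the call was lost with the replicate number as a block (0.060) and with every probe set tested (0.11). Over the alternatives the adjusted p ranged from 0.0085 to 0.11. The spans of the 2 genes overlap in the GRCh38.p14 table, and no source used here states whether the probes tell the strands apart.

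The other neighbours went both ways. Of 8 listed neighbours, LIN28B-AS1 included, 7 were measured, 1 rose, 2 fell and 4 did not pass the test, with a median change of -0.08, beside 17.0% of all genes past the test. ATG5, a conjugation factor of autophagy 1101144 bases away, fell by 0.35 (adjusted p = 0.018), from 7.78 ± 0.10 to 7.43 ± 0.05 (SD, n = 3 each). That call was lost without NSC array 1 (adjusted p = 0.055), shBRG1 array 1 (0.065) or shBRG1 array 3 (0.061), and ranged from 0.0019 to 0.066. POPDC1, a membrane protein of the Popeye family 13490 bases from LIN28B, fell by 0.37 (adjusted p = 0.033), from 9.13 ± 0.12 to 8.76 ± 0.12 (SD, n = 3 each). That call was lost under median centring (adjusted p = 0.055) and without NSC array 1 (0.097), NSC array 3 (0.096), shBRG1 array 1 (0.10) or shBRG1 array 3 (0.11), and ranged from 0.0021 to 0.11. HACE1, a ubiquitin ligase 77107 bases away on the other side, differed by 0.18 (adjusted p = 0.096), PREP, a peptidase, by 0.18 (adjusted p = 0.12), POPDC3 by -0.08 (adjusted p = 0.58) and CRYBG1 by -0.09 (adjusted p = 0.57). With dim genes left out HACE1 (adjusted p = 0.026) and PREP (0.037) passed, and PREP passed with the trend and robust options (0.032), but the mean of the 2 PREP probe sets differed by 0.0017 (0.99). POPDC3 ranged from -0.14 without NSC array 2 to -0.05 without NSC array 3, and CRYBG1 from -0.16 without shBRG1 array 2 to -0.0062 without shBRG1 array 3. The nearest measured coding neighbour, POPDC1, thus went against LIN28B in sign.

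**Figure D3:**
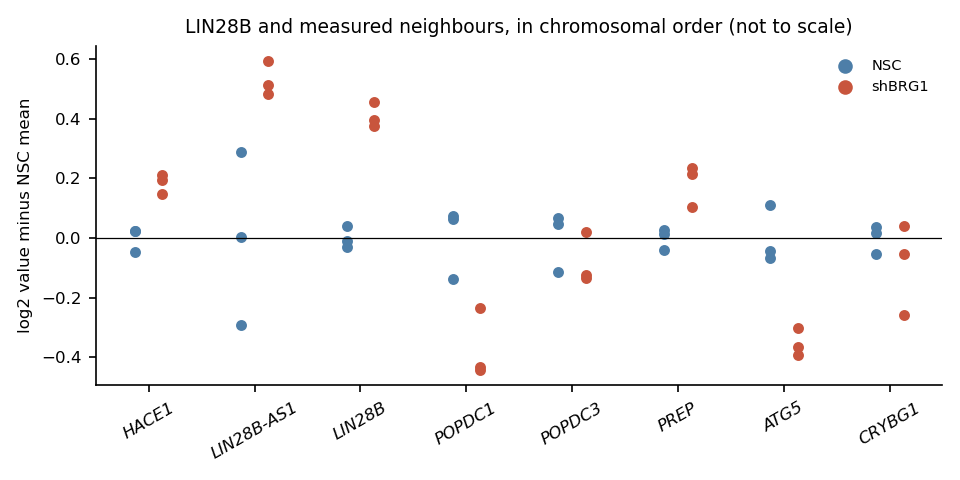
Log2 value minus the NSC mean of the same gene (y axis) on the 3 NSC arrays (blue) and the 3 shBRG1 arrays (red) for LIN28B and its measured neighbours, in chromosomal order and not to scale. LIN28B and LIN28B-AS1 have all shBRG1 points above all NSC points, and POPDC1 and ATG5 have all of them below.

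The promoter table held 2 starts for LIN28B, 16142 bases apart and both inside the gene span, which begins at base 104937026, and their windows of 250 bases before to 50 bases after the start are shown because LIN28B and LIN28B-AS1 were both higher in shBRG1 and the window of the nearer start shares 63 bases with that of LIN28B-AS1. Both windows lie on the plus strand of GRCh38.p14 and come from RefSeq. They were searched on both strands for CACGTG, the E-box known as the site of MYC family dimers, which reads the same on both strands and is in capitals where found.
LIN28B start nearer LIN28B-AS1, chr6:104940715-104941014: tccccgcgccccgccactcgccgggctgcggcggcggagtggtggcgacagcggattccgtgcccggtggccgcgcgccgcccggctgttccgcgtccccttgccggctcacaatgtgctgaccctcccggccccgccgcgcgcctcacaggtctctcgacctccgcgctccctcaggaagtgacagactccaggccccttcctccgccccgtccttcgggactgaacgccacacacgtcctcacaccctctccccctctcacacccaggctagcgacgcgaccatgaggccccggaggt
LIN28B start farther away, chr6:104956857-104957156: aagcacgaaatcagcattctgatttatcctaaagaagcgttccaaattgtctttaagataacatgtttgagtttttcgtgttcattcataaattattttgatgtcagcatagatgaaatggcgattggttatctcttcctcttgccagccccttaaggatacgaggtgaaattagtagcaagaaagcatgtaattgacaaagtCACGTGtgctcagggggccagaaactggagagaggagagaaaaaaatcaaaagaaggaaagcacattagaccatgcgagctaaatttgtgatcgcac
The letters occurred in the window of the farther start, at position -47, and not in that of the nearer start or in that of LIN28B-AS1. Of 35116 windows of the same length, 2548 (7.26%) held them. The 1 probe set of LIN28B does not say which start its RNA came from, and no binding was measured.

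Genes with the profile most like that of LIN28B were taken as the 5 with the smallest root mean square difference over the 6 arrays, after each gene was centred on its own mean. They were MAX (root mean square difference 0.025 on the log2 scale), PPID (0.027), RIMOC1 (0.027), MRPL36 (0.029) and RHBDD1 (0.029), out of 14882 genes compared. Each was higher in shBRG1, by 0.38 for MAX, 0.40 for PPID, 0.39 for RIMOC1, 0.41 for MRPL36 and 0.37 for RHBDD1, as a choice by likeness to LIN28B requires. By the same measure LIN28B-AS1 ranked 5303, MIRLET7C 2284 and MIRLET7D 13841 among these genes.

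Factors that act on let-7 precursors mostly did not pass the test. Of 25 listed, 16 were measured, 1 rose, 3 fell and 12 did not pass the test, 4 of 16 past it beside 17.0% of all genes, with a median change of 0.02. DIS3L2, the exonuclease that degrades let-7 precursors uridylated under the action of LIN28, rose by 0.33 (SE 0.07, adjusted p = 0.022), from 7.22, 7.16 and 7.34 in NSC to 7.57, 7.63 and 7.53 in shBRG1. ZC3H12A, a nuclease that cleaves precursor loops, fell by 0.43 (adjusted p = 0.014). PTBP1, a splicing regulator, fell by 0.30 (adjusted p = 0.018), and MSI1, a progenitor RNA-binding protein that works with LIN28 proteins, fell by 0.27 (adjusted p = 0.025). LIN28A, the paralogue of LIN28B, was dim, at 3.49, 3.24 and 3.15 in NSC and 3.66, 3.04 and 3.13 in shBRG1, with a difference of -0.02 (adjusted p = 0.96). The uridylyltransferases TUT4 and TUT7 and the ligase TRIM71 were not analysed here.

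These 4 calls were close to the threshold. DIS3L2 lost its call without NSC array 1 (adjusted p = 0.065), NSC array 2 (0.067) or shBRG1 array 1 (0.064), 2 (0.070) or 3 (0.052). ZC3H12A lost it without shBRG1 array 1 (0.053) or 2 (0.051). PTBP1 lost it without NSC array 1 (0.052), 2 (0.051) or 3 (0.055) or shBRG1 array 1 (0.065) or 3 (0.065). MSI1 lost it without any single array, at 0.055 without NSC array 3 up to 0.081 without shBRG1 array 3. With no array left out, MSI1 also lost it with the trend and robust options (0.073). With every probe set tested, the calls of MSI1 (0.088), DIS3L2 (0.075), PTBP1 (0.069) and ZC3H12A (0.054) were lost. With the replicate number as a block, those of MSI1 (0.090), DIS3L2 (0.074) and PTBP1 (0.073) were lost, while ZC3H12A kept its call (0.036). Over all alternatives the adjusted p ranged from 0.0033 to 0.075 for DIS3L2, from 0.0034 to 0.054 for ZC3H12A, from 1.5e-05 to 0.073 for PTBP1 and from 0.016 to 0.090 for MSI1.

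In the general microRNA pathway, 13 of 28 listed genes were measured, 1 rose, 2 fell and 10 did not pass the test (23.1% passed, beside 17.0% of all genes), with a median change of 0.01. TNRC6C, a scaffold of the silencing complex, fell by 0.51 (SE 0.07, adjusted p = 0.0036), from 8.09, 8.10 and 8.11 in NSC to 7.51, 7.69 and 7.57 in shBRG1, and no alternative at the 0.05 threshold ended that call. Its paralogue TNRC6B rose by 0.31 (adjusted p = 0.038), and DCP2, the decapping enzyme, fell by 0.28 (adjusted p = 0.024). TNRC6B lost its call under loess (adjusted p = 0.072) and without NSC array 1 (0.11), 2 (0.088) or 3 (0.067) or shBRG1 array 1 (0.11) or 2 (0.11), and ranged from 0.0064 to 0.11. DCP2 lost it without NSC array 1 (0.075) or 2 (0.071) or shBRG1 array 1 (0.060), 2 (0.071) or 3 (0.076), and ranged from 0.0011 to 0.084. DGCR8, the RNA-binding partner of the nuclear processing enzyme, differed by -0.20 (adjusted p = 0.20) and -0.11 without NSC array 3, and the exportin XPO5 by -0.11 (adjusted p = 0.36) and -0.17 under loess. With genes below the median gene left out, 4 of 13 pathway genes and 3 of 14 processing factors passed, both smaller shares than the 3201 of all 7442 genes tested so, and the order of the shares was thus turned round from that over all genes. DROSHA, DICER1 and the Argonaute genes were not analysed here.

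Known let-7 targets moved in both directions. Of 66 listed, 42 were measured, 5 rose, 7 fell and 30 did not pass the test, so 28.6% passed beside 17.0% of all genes, and the median change was -0.02 beside 0.01. With genes below the median gene left out, 16 of 30 targets passed, beside 3201 of all 7442 genes tested so. CDK6, a kinase of the early cell cycle, fell most, from 8.65, 8.57 and 8.48 in NSC to 7.18, 7.28 and 7.22 in shBRG1. The groups lay far apart, and the difference was -1.34 (SE 0.07, adjusted p = 1.5e-04). GALNT1, which starts mucin-type glycosylation, fell by 1.25 (adjusted p = 1.8e-04), from 9.35 ± 0.09 to 8.10 ± 0.05 (SD, n = 3 each), and the deubiquitinase USP38 by 0.78 (adjusted p = 0.0018). The receptors INSR (-0.87, adjusted p = 7.9e-04) and IGF1R (-0.79, adjusted p = 9.5e-04) fell as well. RDH10, an enzyme of retinoic acid synthesis, rose by 0.66 (adjusted p = 0.0022), from 6.33 ± 0.11 to 6.996 ± 0.07 (SD, n = 3 each). None of these 6 calls ended under an alternative at the 0.05 threshold.

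The IGF2BP family, oncofetal RNA-binding proteins and targets of let-7, split. IGF2BP1 was 9.40, 9.33 and 9.37 in NSC and 9.62, 9.78 and 9.81 in shBRG1, and it rose by 0.37 (SE 0.08, adjusted p = 0.015). IGF2BP3 fell by 0.26 (adjusted p = 0.039), from 6.93 ± 0.03 to 6.68 ± 0.06 (SD, n = 3 each), and IGF2BP2, dim on all arrays, differed by -0.26 (adjusted p = 0.18), and by -0.17 without shBRG1 array 3. IGF2BP1 lost its call without shBRG1 array 2 (adjusted p = 0.051) or 3 (0.056), and ranged from 2.0e-04 to 0.056. IGF2BP3 lost it under median centring (0.075) and without any single array, at 0.075 without shBRG1 array 2 up to 0.12 without shBRG1 array 3, and ranged from 0.0086 to 0.12. Their difference in change was not tested.

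LRIG2, a membrane regulator of receptor signalling, rose by 0.29 (adjusted p = 0.025), and ARID3B, a DNA-binding protein linked to neuroblastoma growth, fell by 0.36 (adjusted p = 0.027). NAP1L1, a histone chaperone (0.47, adjusted p = 0.027), and STK40 (0.46, adjusted p = 0.030) rose too. Both were named after their values were seen, outside the rule that picked the other targets by smallest p or from a fixed set. LRIG2 lost its call without NSC array 2 (adjusted p = 0.074) or 3 (0.056) or shBRG1 array 1 (0.080), 2 (0.066) or 3 (0.068), and ARID3B without NSC array 1 (0.080) or 2 (0.067) or shBRG1 array 2 (0.082) or 3 (0.091). NAP1L1 lost it without NSC array 2 (0.078) or 3 (0.081) or shBRG1 array 2 (0.072) or 3 (0.074), and STK40 under loess (0.052) and without NSC array 1 (0.062) or 3 (0.071) or shBRG1 array 1 (0.091) or 2 (0.095). Over all alternatives the adjusted p ranged from 0.0025 to 0.086 for LRIG2, from 0.0074 to 0.091 for ARID3B, from 0.0080 to 0.083 for NAP1L1 and from 0.0087 to 0.095 for STK40. HMGA2, an architectural chromatin protein and a classic let-7 target, was dim, with a difference of -0.06 (adjusted p = 0.71), as was the cyclin CCND2 (-0.06, adjusted p = 0.73). HMGA1 was well above the array medians, at 8.79 ± 0.07 and 8.77 ± 0.13 (SD, n = 3 each), with a difference of -0.02 (adjusted p = 0.91).

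**Figure D4:**
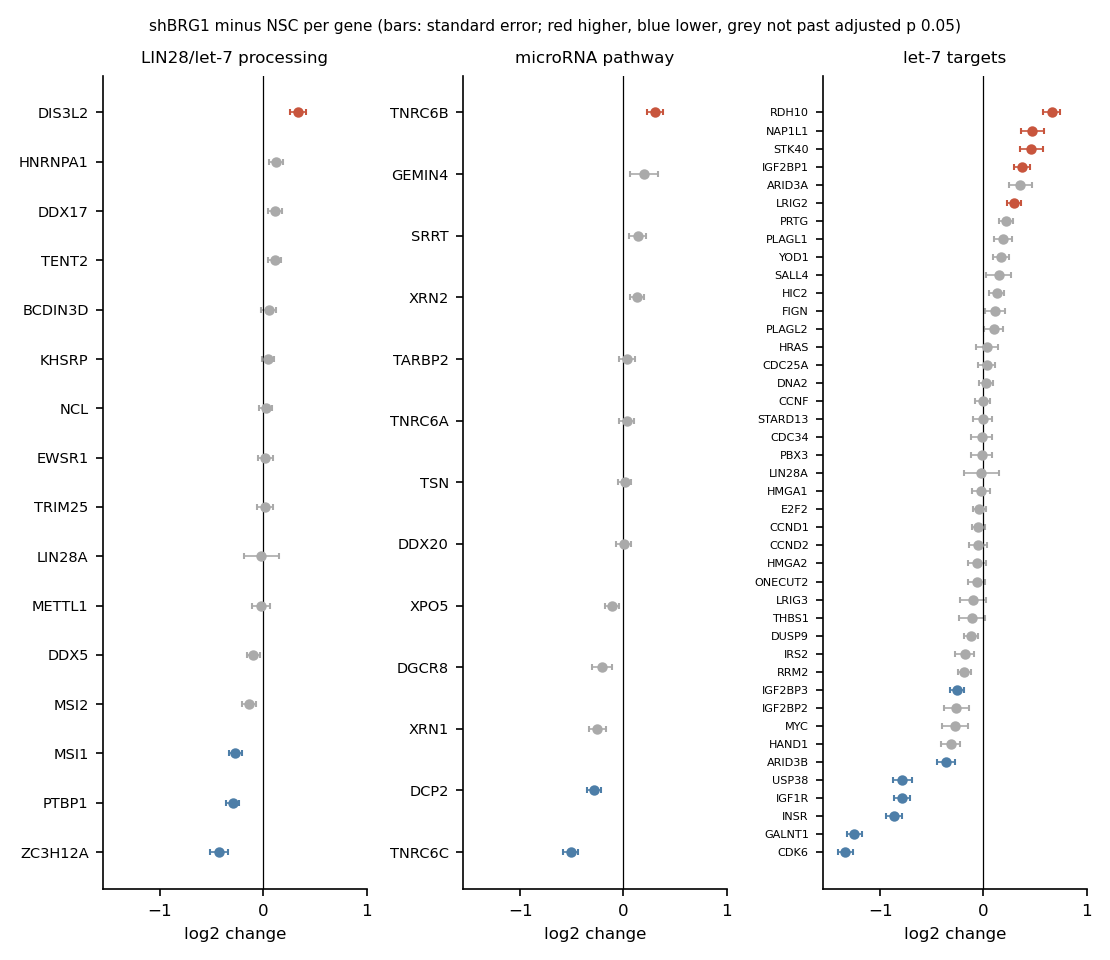
shBRG1 minus NSC on the log2 scale (x axis) for each measured gene of the let-7 processing, microRNA pathway and let-7 target lists, with bars of 1 moderated standard error, red for genes that rose, blue for genes that fell and grey for genes not past an adjusted p of 0.05. Most genes lie near 0, and CDK6 (-1.34) and GALNT1 (-1.25) lie farthest from it.

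LIN28B is known to raise RAN and AURKA activity in neuroblastoma, and 5 of 10 genes listed for that circuit were measured, with RAN not analysed here. Of these, 0 rose, 2 fell and 3 did not pass the test, with a median change of -0.13, beside 17.0% of all genes past the test and 7.19% that fell. AURKA, the mitotic kinase that also stabilises MYCN protein, was 7.854, 8.002 and 7.914 in NSC and 7.499, 7.248 and 7.494 in shBRG1. Its RNA fell by 0.51 (SE 0.09, adjusted p = 0.0092), opposite in sign to that of LIN28B, and no alternative at the 0.05 threshold ended that call. The activity of the kinase was not measured. RANBP2, a nuclear pore protein, fell by 0.28 (adjusted p = 0.030), but lost the call under median centring (0.052) and without any single array, at 0.056 without NSC array 1 up to 0.099 without shBRG1 array 1, and ranged from 0.0065 to 0.099. RANBP1 (-0.11, adjusted p = 0.31), RANGAP1 (-0.06, adjusted p = 0.69) and KPNB1 (-0.13, adjusted p = 0.22) did not pass, though KPNB1 did with the trend and robust options (0.0061). RANBP1 was -0.17 under loess and -0.07 as the mean of its probe sets. RANGAP1 was -0.13 under loess, -0.12 without shBRG1 array 2 and -0.02 without NSC array 3.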

How the data were processed

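The authors deposited log2 expression values per probe set for 6 arrays. The submitters' processing notes list R 3.1.0 with oligo 1.27, limma 3.19 and RMA, with no roles given. The log2 scale was taken from the range of the values, 1.19 to 13.8. RMA, where used, gives the probe intensities of every array the same distribution, which hides a global shift. It can also understate changes of dim probe sets such as those of several let-7 genes. Medians of the deposited arrays over all probe sets still ran from 3.77 to 3.84. Precision is limited by having 3 arrays per group.

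Of 52299 probe sets, 15828 had a single symbol in the platform annotation, 36471 had none and 0 had more than 1. Gene identifiers in the GRCh38.p14 table brought all 15828 symbols up to date. The brightest probe set per gene by the mean of 6 arrays was kept, which left 14883 genes. Groups were compared with lmFit and eBayes of limma 3.58.1 under R 4.3.3, two-sided, with Benjamini-Hochberg adjustment over all 14883 genes and a threshold of 0.05, after a check on simulated data. Figures were drawn with matplotlib 3.10.9.

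The members and lists were chosen with earlier results of these data known. Members were given by value. From each of the processing, pathway and target lists the text names up to the 8 genes past the threshold with the smallest p. A fixed set of genes is named with or without a change, and NAP1L1 and STK40 were added outside this rule. From the circuit, host and neighbour lists every measured gene is named. The same replicate numbers occur in both groups, and they were not taken to pair the samples.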

Additional observations from a re-analysis of the deposited data

How the results depend on the processing

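The count of genes past an adjusted p of 0.05, 2525, stayed within 1.5 times under other scalings, averaging, weights and moderation. With dim genes left out the count was 3201 of 7442, a larger share than 2525 of 14883. It was 1086 at an adjusted p of 0.01 and 1604 to 1840 without 1 array, with 1633, 1662 and 1604 without shBRG1 arrays 1, 2 and 3. Loess put 1212 higher and 1329 lower, against 1455 and 1070. With the replicate number as a block the count was 1608, and the lists of processing factors and pathway genes had 1 call each. The numbers were not taken to pair the samples. Same-numbered arrays deviated with correlations of -0.044, -0.144 and -0.033, none over 0.1, but so few arrays cannot settle whether the infections were paired. Over the whole array, 3306 of 14883 genes passed with the trend and robust options, and 2440 of 52299 probe sets passed with every probe set tested. Of the processing factors, 0 passed with every probe set tested, 0 at 0.01, and 0 to 2 without 1 array. Of the pathway genes, 5 passed with the trend and robust options, 1 with every probe set, 1 at 0.01 and 1 to 2 without 1 array. Of the targets, 6 passed with every probe set, 6 at 0.01 and 7 to 9 without 1 array, 7 of them without shBRG1 array 2. Each call that the text above gives as lost without 1 array was also lost with every probe set tested. All of these calls but those of ZC3H12A, ARID3B, STK40 and MIR99AHG were also lost with the replicate number as a block. Fewer arrays leave fewer degrees of freedom, and for other settings the cause was not tested.

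Besides MIRLET7A3, MIRLET7G and MIRLET7I, which were not tested, 11 genes the text names changed sign under an alternative, and limma called 0 of them under any. Without 1 array, LIN28A ranged from -0.21 to 0.10, HMGA2 from -0.13 to 0.015, HMGA1 from -0.095 to 0.029, CCND2 from -0.098 to 0.017, MIR99B from -0.31 to 0.025, MIR4500 from -0.020 to 0.13, MIR100 from -0.086 to 0.020, MIR125B2 from -0.045 to 0.13, MIR4458 from -0.15 to 0.062, MIR99A from -0.19 to 0.15 and MIR125A from -0.080 to 0.083. LIN28A was 0.0084 under loess, MIR99A -0.053 with array weights, and MIR125A 0.017 under median centring and 0.032 under loess. Many let-7 probe sets lie near or below the array medians, which limits what changes they can show.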
